A study of Mus musculus with 6 samples.

Results

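Solute carriers are membrane transporters, and their gene symbols begin with Slc and a family number. This account covers the circular RNAs (circRNAs) of these genes in mouse hippocampus. CircRNAs are closed rings made when a downstream splice donor joins an upstream acceptor of the same transcript. A circRNA was taken when its only listed host gene carried such a symbol in GENCODE vM21, and Slc8a1 (11 circRNAs) was kept out by the same rule. The rule gave 114 circRNAs of 53 host genes, out of 10652 circRNAs in the table and 9208 with a single listed gene (3675 genes). Because it used the symbol alone, the 53 include Slc4a1ap, whose product is not itself a transporter. A further 5 circRNAs listed an Slc gene together with another gene and were kept out.

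Libraries were made from hippocampi of C57BL/6J males (strain tag C57BL/6), adults given as 8 to 10 weeks old. The 3 Control libraries came from mice without the stress schedule, and the 3 CUS libraries came from mice under chronic unpredictable stress for 4 weeks. The stressors included food or water deprivation, cold swimming, restraint and cage tilting, and the comparison asks which circRNAs differ with stress. The labels name no transgene or drug in either group and do not say whether a library is 1 mouse or a pool, so p-values measure only the spread between these libraries, which may be technical.

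Transporters of this class carry ions, amino acids, sugars, metals and nucleotides across the plasma membrane and across organelle membranes. In the hippocampus, astrocytes clear glutamate and potassium and buffer acid, oligodendrocytes take up choline for membrane lipids, and neurons export calcium, load vesicles and import glutamine. A circRNA of a transporter gene shares exons with the transporter's mRNA, or introns with its unspliced transcript. The circRNA level is not a measure of that mRNA or of the protein.

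The level given throughout is 10 to the deposited log10 value, with a listed 0 kept at 0, and a host sum is the total level of that host's circRNAs. Poly(A) selection preceded the libraries, and a ring has no tail of its own. The number of reads behind a level is unknown. A circRNA listed at 0 is therefore not shown to be absent. Relative depth, the inverse of the step in which a library's levels are spaced, was 90.8% to 100% in Control against 81.9% to 89.8% in CUS. No label says whether this depth tracks the number of reads. Of 12 hippocampal neuron markers 8 had a circRNA with a single listed gene, among them Prox1 and Rfx3, while Calb1, Fibcd1, Neurod1 and Wfs1 had none. None of 6 microglial markers had one. In bulk tissue, fewer cells of a type and less RNA per cell cannot be told apart.

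The 114 circRNAs were thinly spread. Exonic circRNAs made up 110 and intronic ones 4 (Slc24a2, Slc25a42, Slc35f3 and Slc7a8). Of the 114, 52 (45.6%) were above 0 in a single library and 6 (5.26%) in all 6. Over all circRNAs with a single listed gene these shares were 35.9% and 7.65%. A single circRNA was listed for 30 of the 53 hosts. Slc24a2 had the most with 12, followed by Slc4a4 with 9, Slc4a10 with 7, Slc1a2 with 6 and Slc9a7 with 5. Hosts were long genes, with a median length of 71.5 kb against 25.4 kb for protein-coding Slc genes without such a circRNA. The corresponding medians over all genes were 75.4 kb for hosts and 13.3 kb for protein-coding genes without one. Of 370 protein-coding Slc genes 53 had a circRNA (14.3%), against 3516 of 21951 protein-coding genes overall.

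Summed over all 114 circRNAs, the level was 12998, 15166 and 16544 over the Control libraries, in replicate order, against 16952, 14002 and 14074 over the CUS libraries. All values by library keep this order. The means were 14903 ± 1788 in Control and 15009 ± 1683 in CUS (SD, n = 3 per group), so the groups overlapped and their means lay closer than the spread. These sums were 0.641% to 0.847% of each library's circRNA level. Control libraries held 43, 44 and 42 of the circRNAs above 0, and CUS libraries held 36, 34 and 42. Over the whole table the numbers were 4329 to 4606 in Control and 3991 to 4273 in CUS, and the part of depth in this was not tested.

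**Figure D1:**
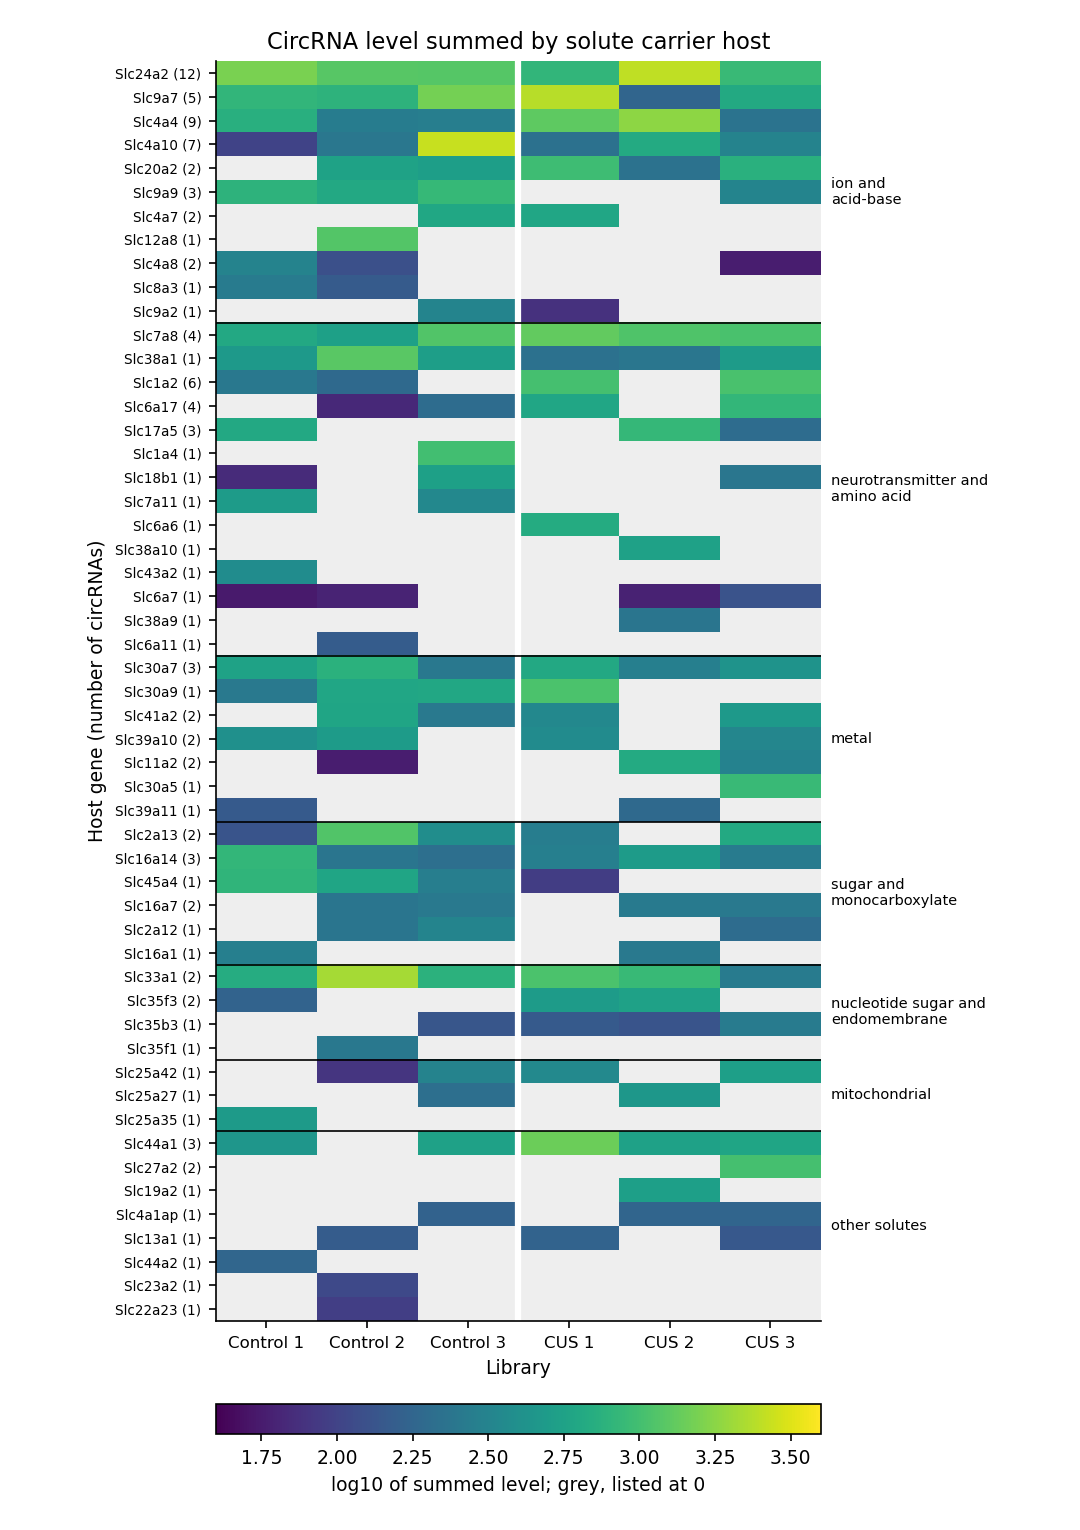
Heat map of the circRNA level summed by host (log10 colour scale) for the 53 solute carrier hosts in rows and the 6 libraries in columns, grouped by transported solute, with the number of circRNAs in brackets and grey for hosts listed at 0. A reader should see 9 hosts coloured in all 6 libraries and 15 hosts coloured in a single library.

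The sodium, calcium and acid-base transporters were the most abundant role group, with 11 hosts, 45 circRNAs and 36.6% of the members' level. Slc24a2 encodes a potassium-dependent sodium-calcium exchanger of neurons (chromosome 4, 86983124 to 87230477, GRCm38). Its host sum was the highest of the 53, at 1564, 1205 and 1189 in Control against 823, 2560.4 and 902 in CUS. CUS replicate 2 was the highest library and CUS replicates 1 and 3 the lowest, so the CUS values surrounded the Control values. The means were 1319.5 ± 212 in Control and 1428 ± 981 in CUS (SD, n = 3 per group). No single Slc24a2 circRNA was above 0 in more than 4 libraries. mmu_circRNA007355, the broadest, was at 217, 113 and 0 in Control against 0, 371 and 489 in CUS. mmu_circRNA007350 alone gave 1291 of the 2560.4 in CUS replicate 2.

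Slc4a4 encodes the electrogenic sodium bicarbonate cotransporter of astrocytes (chromosome 5, 88886818 to 89239653). Its 9 circRNAs summed to 727, 277 and 285 in Control against 1274, 1829 and 228 in CUS. CUS replicates 1 and 2 were above every Control library and CUS replicate 3 was below every one. The ratio of the group means was 2.58, with means of 429.5 ± 257 and 1110.3 ± 813 (SD, n = 3 per group). The fitted log2 difference was 1.01 with SE 0.91 and a 95% interval of -0.83 to 2.86 (limma adjusted p = 0.917). It was 0.47 without CUS replicate 2 and 1.85 without CUS replicate 3.

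The Slc4a4 sum came from different circRNAs in different libraries. In CUS replicate 1 it was made of mmu_circRNA008166 (681) and mmu_circRNA008175 (593), both at 0 in the other 5 libraries. These 2 differed by 30 steps, so reads may be counted in both. Counted alone, mmu_circRNA008166 was below the Control replicate 1 sum of 727. In CUS replicate 2 mmu_circRNA008167 was at 656 and mmu_circRNA008168 at 624. mmu_circRNA008167 was otherwise above 0 only in Control replicate 1, at 48.3, and mmu_circRNA008168 was at 0 in the other 5 libraries. mmu_circRNA008173 was above 0 only in Control replicate 1, at 449, and mmu_circRNA008171 only in CUS replicate 3, at 119.6. mmu_circRNA008170 was at 192 and 285 in Control replicates 2 and 3, and mmu_circRNA008169 at 85.7 in Control replicate 2 and 231 in CUS replicate 2. Only mmu_circRNA008172 was above 0 in 3 libraries, at 229 in Control replicate 1 and at 317 and 109 in CUS replicates 2 and 3. No Slc4a4 circRNA was therefore measured in every library of either group.

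**Figure D2:**
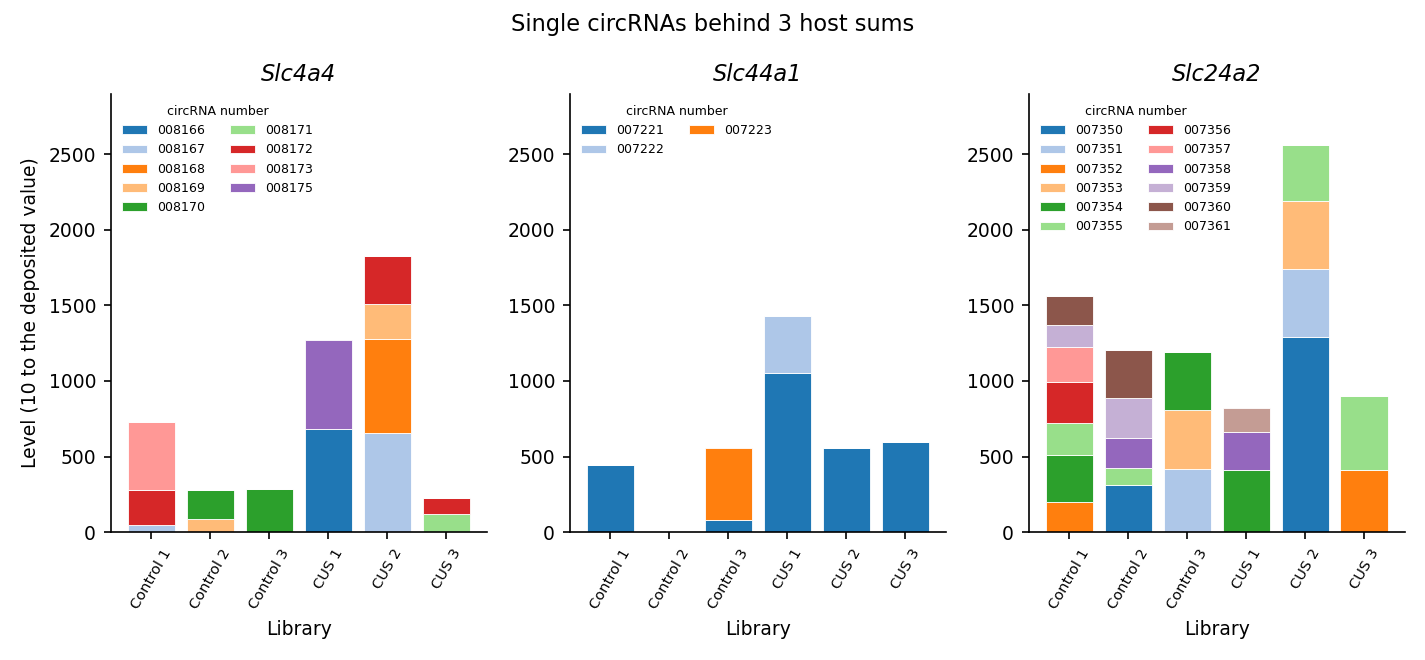
Stacked bars of the level of each circRNA of Slc4a4, Slc44a1 and Slc24a2 in the 6 libraries, with the circRNA number in the legend. The bars of Slc4a4 and Slc24a2 are built from different circRNAs in different libraries, while mmu_circRNA007221 makes up most of Slc44a1 in 4 of its 5 libraries.

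Such turnover was seen in 4 of the 9 solute carrier hosts above 0 in all 6 libraries (Slc16a14, Slc24a2, Slc4a10 and Slc4a4), none of which had any circRNA above 0 in all 6. The other 5 (Slc30a7, Slc33a1, Slc38a1, Slc7a8 and Slc9a7) each had 1 or more. Over all 874 hosts above 0 in all 6 libraries, 329 lacked such a circRNA. The difference between these shares was not tested.

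Slc4a10 encodes a sodium-dependent bicarbonate transporter of neurons (chromosome 2, 62046462 to 62326730). Its host sum was 101, 247 and 2724 in Control against 221, 659 and 309.9 in CUS, so Control replicate 3 stood far above the other libraries. In that library 5 of its 7 circRNAs were above 0, at 500.0 to 622. Among them, mmu_circRNA005999, mmu_circRNA006000 and mmu_circRNA006004, were above 0 only there and within 22 steps of each other, where a step is the smallest unit of level in that library. Levels this close may come from shared reads. The fitted log2 difference of Slc4a10 was -0.28 with SE 1.14, and it was 0.97 without Control replicate 3. Slc4a8, a related bicarbonate transporter gene, was at 311, 124 and 0 in Control against 0, 0 and 57.1 in CUS. Control replicates 1 and 2 were above all CUS libraries, while Control replicate 3 was at 0.

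Slc9a7 and Slc9a9 encode sodium-proton exchangers of organelles. Both were fitted lower in CUS, and a difference between them was not tested. Slc9a7, whose product sits in the trans-Golgi network (chromosome X, 20105754 to 20291807), was at 823, 782 and 1511 in Control against 2406, 178 and 652 in CUS. CUS replicates 1 and 2 were the highest and lowest of the 6 libraries. The fitted log2 difference of the Slc9a7 sum was -0.52 with SE 0.78 and a 95% interval of -2.09 to 1.06. Slc9a9, whose product sits in recycling endosomes (chromosome 9, 94669909 to 95230445), was at 779.7, 640.4 and 878 in Control against 0, 0 and 321 in CUS. All 3 Control libraries were above all 3 CUS libraries, and the only CUS value came from mmu_circRNA010813. The most abundant Slc9a9 circRNA, mmu_circRNA010812, was at 562 and 878 in Control replicates 1 and 3 and at 0 in the other 4 libraries. The fitted log2 difference of the Slc9a9 sum was -3.14 with SE 1.42 and a 95% interval of -6.02 to -0.27, and it did not pass the threshold of 0.05 (limma adjusted p = 0.733). Without CUS replicate 3 it was -4.15. Slc20a2, a phosphate transporter gene, was at 0, 569.8 and 524 in Control against 961, 226 and 737 in CUS, with overlapping groups.

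Amino acid and neurotransmitter transporters had 14 hosts, 27 circRNAs and 22.2% of the members' level. Slc7a8 encodes the light chain of a neutral amino acid exchanger (chromosome 14, 54722209 to 54781946). Its host sum was 642, 545 and 1141 in Control against 1312, 1124 and 1065 in CUS, with Control replicate 3 among the CUS values. The means were 776 ± 319.9 in Control and 1167 ± 129 in CUS (SD, n = 3 per group), with a log2 difference of 0.62, SE 0.67 and a 95% interval of -0.73 to 1.98. Control replicate 3 held an intronic circRNA, mmu_circRNA003334, at 659.6 that was at 0 elsewhere. mmu_circRNA003337, which carried 71.7% of the host's level, was at 642, 545 and 481 in Control against 822, 624 and 1065 in CUS. CUS replicate 2 lay just below Control replicate 1, and the limma adjusted p was 0.872.

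Slc38a1 encodes a sodium-coupled glutamine transporter of neurons (chromosome 15, 96571418 to 96642913) and had a single circRNA, mmu_circRNA003976. It was at 480.4, 1218 and 529 in Control against 221, 242 and 500.1 in CUS. CUS replicates 1 and 2 were below all Control libraries, and CUS replicate 3 lay between Control replicates 1 and 3. The Control mean of 743 ± 412 was 2.31 times the CUS mean of 321 ± 155 (SD, n = 3 per group). As a host sum its log2 difference was -1.06 with SE 1.00 (limma adjusted p = 0.917).

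Slc1a2 encodes the main glutamate transporter of astrocytes (chromosome 2, 102658659 to 102790784). Its 6 circRNAs summed to 251, 192 and 0 in Control against 1020.1, 0 and 1055 in CUS. CUS replicates 1 and 3 stood above all others, while CUS replicate 2 and Control replicate 3 were at 0. Each of the 6 circRNAs was above 0 in a single library. The 2 in CUS replicate 1 (mmu_circRNA006169 at 501 and mmu_circRNA006170 at 519) differed by 6 steps, and the 2 in CUS replicate 3 (mmu_circRNA006167 at 552 and mmu_circRNA006168 at 503) by 18, so reads may be counted in both. Slc6a17, a vesicular amino acid transporter gene of neurons, was at 0, 68.1 and 202 in Control against 604, 0 and 837 in CUS, with the same CUS libraries high. Slc6a7, the brain proline transporter gene, stayed low, at 55.5, 63.0 and 0 in Control against 0, 61.9 and 130.5 in CUS.

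The remaining amino acid hosts were seen in fewer libraries. Slc17a5, which encodes a sialic acid carrier of lysosomes, was at 642, 0 and 0 in Control against 0, 861 and 201 in CUS. Slc18b1 was at 70.0, 0 and 545 against 0, 0 and 242. The glial genes Slc7a11 (cystine-glutamate exchanger), Slc1a4 and Slc6a11 (astrocyte GABA transporter) were above 0 only in Control. Slc7a11 was at 497 and 343 in Control replicates 1 and 3, Slc1a4 at 982 in Control replicate 3 and Slc6a11 at 151 in Control replicate 2. Being above 0 in at most 2 libraries, these 3 were not tested.

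Metal transporters had 7 hosts and 12.3% of the members' level. Slc30a7, a zinc transporter gene of the Golgi (chromosome 3, 115938973 to 116007406), was at 565, 751 and 250.0 in Control against 637, 290.5 and 421 in CUS, and the 3 CUS values lay within the Control range. Slc30a9 was at 258, 608 and 633 in Control against 1085, 0 and 0 in CUS, so CUS held both the highest library and the only zeros. Slc11a2, the divalent metal transporter gene that carries iron, was at 0, 58.0 and 0 in Control against 0, 664 and 304 in CUS. It had the highest fitted difference among the 31 tested host sums (log2 1.91, SE 1.21, limma adjusted p = 0.917), although CUS replicate 1 was at 0. The difference was 1.08 without CUS replicate 2 and 3.06 without CUS replicate 1. Slc39a10 and Slc41a2 overlapped between groups, with log2 differences of -0.21 and 0.01.

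Sugar and monocarboxylate transporters had 6 hosts. Slc45a4 (chromosome 15, 73577424 to 73645762), of a family of proton-coupled sugar transporters, had a single circRNA, mmu_circRNA003835. It was at 804, 600.1 and 287 in Control against 91.4, 0 and 0 in CUS. Every Control library was above every CUS library. The host fit gave a log2 difference of -3.11 with SE 1.47 (limma adjusted p = 0.772), and the circRNA fit gave the same difference with SE 1.31 (limma adjusted p = 0.577). Slc2a13, a myo-inositol transporter gene of neurons, was at 133, 1137 and 378 in Control against 280.1, 0 and 649.7 in CUS. Slc16a7, the neuronal monocarboxylate transporter gene, was at 0, 237 and 258 against 0, 264 and 258, and Slc16a14 of the same family at 838, 237 and 215 against 289, 500.3 and 269. Both sums overlapped, with log2 differences of 0.04 and -0.06. The Slc16a7 level came from mmu_circRNA001378 in Control and from mmu_circRNA001379 in CUS, each at 0 throughout the other group. Each was above 0 in 2 libraries, and neither was tested.

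Among carriers of the endomembranes, Slc33a1 encodes the acetyl-CoA transporter of the endoplasmic reticulum (chromosome 3, 63933507 to 63964768). Its host sum was 688, 2131 and 774 in Control against 1073, 888 and 272 in CUS, with Control replicate 2 high and CUS replicate 3 low. Both of its circRNAs were above 0 in all 6 libraries. mmu_circRNA006706 ranged from 101 to 1999, while mmu_circRNA006707 stayed between 53.1 and 171, with a Control mean of 135 ± 17.2 and a CUS mean of 131 ± 67.7 (SD, n = 3 per group). Slc35b3, a transporter gene for the sulfate donor PAPS, was at 0, 0 and 136 in Control against 147, 132 and 272 in CUS. Slc35f3 was at 171, 0 and 0 against 495, 551 and 0.

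Slc44a1 encodes a choline transporter enriched in oligodendrocytes (chromosome 4, 53440413 to 53622478). Its 3 circRNAs summed to 444, 0 and 556 in Control against 1427, 557 and 598 in CUS. The groups did not overlap, but the lowest CUS library exceeded the highest Control library by less than 1 step. The fitted log2 difference was 1.80 with SE 1.14 and a 95% interval of -0.49 to 4.10 (limma adjusted p = 0.917). Without Control replicate 2, the library at 0, it was 0.61, and without Control replicate 3 it was 2.47. mmu_circRNA007221 carried 76.2% of the level and was at 444, 0 and 82.5 in Control against 1049.5, 557 and 598 in CUS. Its log2 difference was 2.41 with SE 1.14 (limma adjusted p = 0.783), with 1.59 when Control replicate 2 was left out and 3.30 when Control replicate 1 was. mmu_circRNA007223 was above 0 only in Control replicate 3, at 473, and mmu_circRNA007222 only in CUS replicate 1, at 377.

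**Figure D3:**
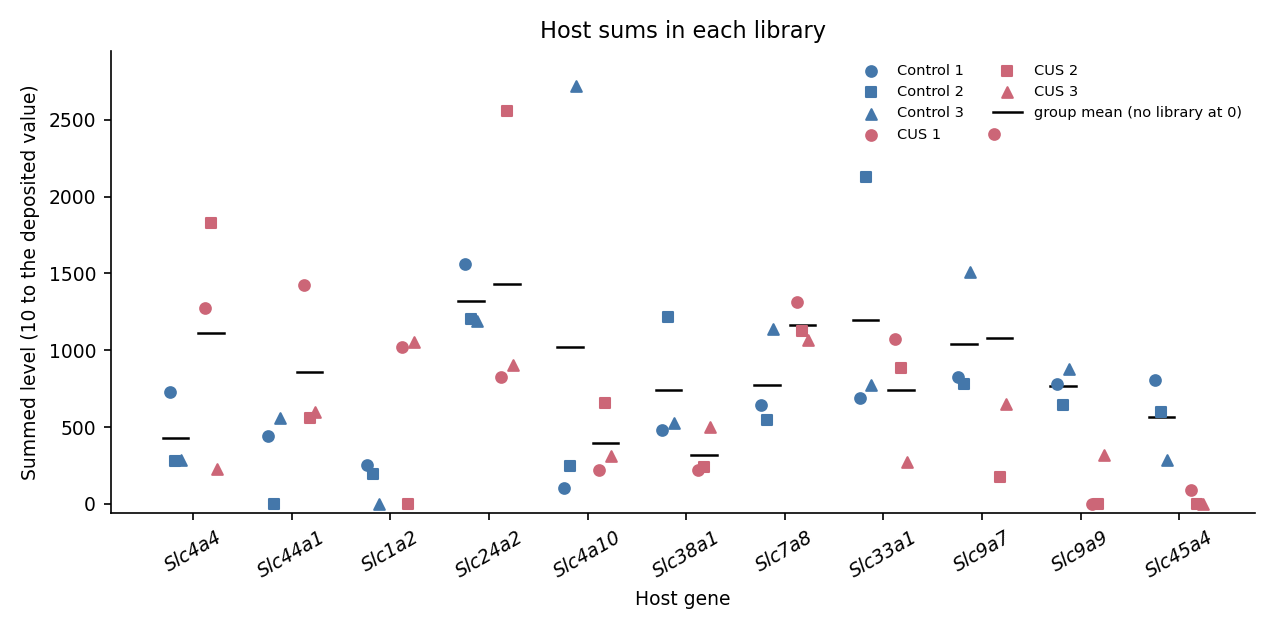
Host sums of 11 named solute carrier genes in each of the 6 libraries (linear axis), with symbols for replicates, colours for groups and black lines for group means where no library is at 0. Control and CUS points are apart for Slc9a9 and Slc45a4. For Slc44a1 the highest Control point and the lowest CUS point lie at nearly the same height. The groups overlap for the other 8 genes.

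Other markers of the same glial cells were summed without the Slc genes. Of 8 astrocyte markers only Gpc5 and Gli3 had a circRNA with a single listed gene, while Aqp4, Gfap, Aldh1l1, Gja1, Aldoc and S100b had none. Their summed level was 437 to 1056 in Control and 348 to 427 in CUS, lower in every CUS library, whereas Slc4a4 was higher in CUS replicates 1 and 2. Of 10 oligodendrocyte markers 5 had one (Edil3, Mbp, Prr5l, Qk and St18), while Mog, Mag, Mobp and Enpp2 were among those with none. Their sums were 1861 to 4256 in Control and 3087 to 3413 in CUS, and these groups overlapped. Of 8 markers of neighbouring tissue only Ntng1 and Tcf7l2 had one. Their sums were 268, 726 and 282 in Control against 699, 549 and 998 in CUS, with overlapping groups. The part of cell composition or dissection in the Slc4a4 and Slc44a1 values was not tested.

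Neuronal and glial transporters were then told apart with lists of 33 and 22 genes. Of the neuronal list 9 genes had 32 circRNAs, summing to 2916, 4448 and 5280 in Control against 2149, 3787 and 3645 in CUS. Of the glial list 6 genes had 21 circRNAs, summing to 1919, 620.3 and 2165 in Control against 3721, 2386 and 1881 in CUS. The means were 4215 ± 1199 and 3194 ± 907 for neuronal genes in Control and CUS, and 1568 ± 830.1 and 2662 ± 951 for glial genes (SD, n = 3 per group). Both pairs of groups overlapped. The glial share of the members' level was 14.8%, 4.09% and 13.1% in Control and 21.9%, 17.04% and 13.4% in CUS, where CUS replicate 3 lay below Control replicate 1. Counting circRNAs of close level once, a choice made after seeing the data, brought the glial difference of means from 1094 to 562 and the neuronal one from -1021 to -581. Single libraries moved them as much. The glial difference was 565 without CUS replicate 1 and 620.2 without Control replicate 2. The neuronal difference was -488 without Control replicate 3, -499 without CUS replicate 1 and -1670.0 without Control replicate 1.

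Among the 8 tested neuronal hosts the fitted value was higher in CUS for 3 and lower for 5, with a median log2 difference of -0.17. Without CUS replicate 1 it was higher for 5 and lower for 3, with a median of 0.12, and without Control replicate 1 the median was -0.70. All 3 tested glial hosts (Slc1a2, Slc4a4 and Slc44a1) had a higher fitted value, with a median of 1.35, which is the value of Slc1a2. With 1 library left out all 3 stayed above 0, and the median ran from 0.72 without CUS replicate 1 to 2.04 without CUS replicate 2. Slc1a2 itself was at 0.51 without Control replicate 3, 0.60 without CUS replicate 1, 0.58 without CUS replicate 3 and 2.88 without CUS replicate 2. The 3 untested glial hosts, Slc7a11, Slc1a4 and Slc6a11, had values only in Control. Slc1a4 and Slc6a11 were above 0 in 1 library each, which can only fall in 1 group. The untested neuronal host Slc8a3 was also above 0 only in Control, at 270 and 149 in replicates 1 and 2. Untested hosts outside both lists, such as Slc30a5 and Slc6a6, were above 0 only in CUS. Over all 2151 tested hosts the median was -0.05 and 48.1% had a higher fitted value. None of the 11 tested neuronal and glial hosts passed the test.

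By role, sums overlapped between groups for ion and acid-base, amino acid, metal, endomembrane and mitochondrial hosts. The sugar and monocarboxylate sum was 2064, 2451 and 1458 in Control against 660.4, 1022 and 1381 in CUS, so the groups did not overlap. Slc45a4 and Slc2a13 made up most of the difference between the means of 1991 ± 501 and 1021 ± 360.2 (SD, n = 3 per group). The remaining hosts, grouped as other solutes, summed to 625, 355.5 and 726 in Control against 1598, 1272 and 1941 in CUS. In CUS that sum held Slc44a1 in all 3 libraries, Slc19a2 (538) only in CUS replicate 2 and Slc27a2 (1022) only in CUS replicate 3. The rest of it in CUS came from Slc13a1 (171, 0 and 141) and Slc4a1ap (0, 178 and 179), the host that is not a transporter gene. The role sums were not tested.

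**Figure D4:**
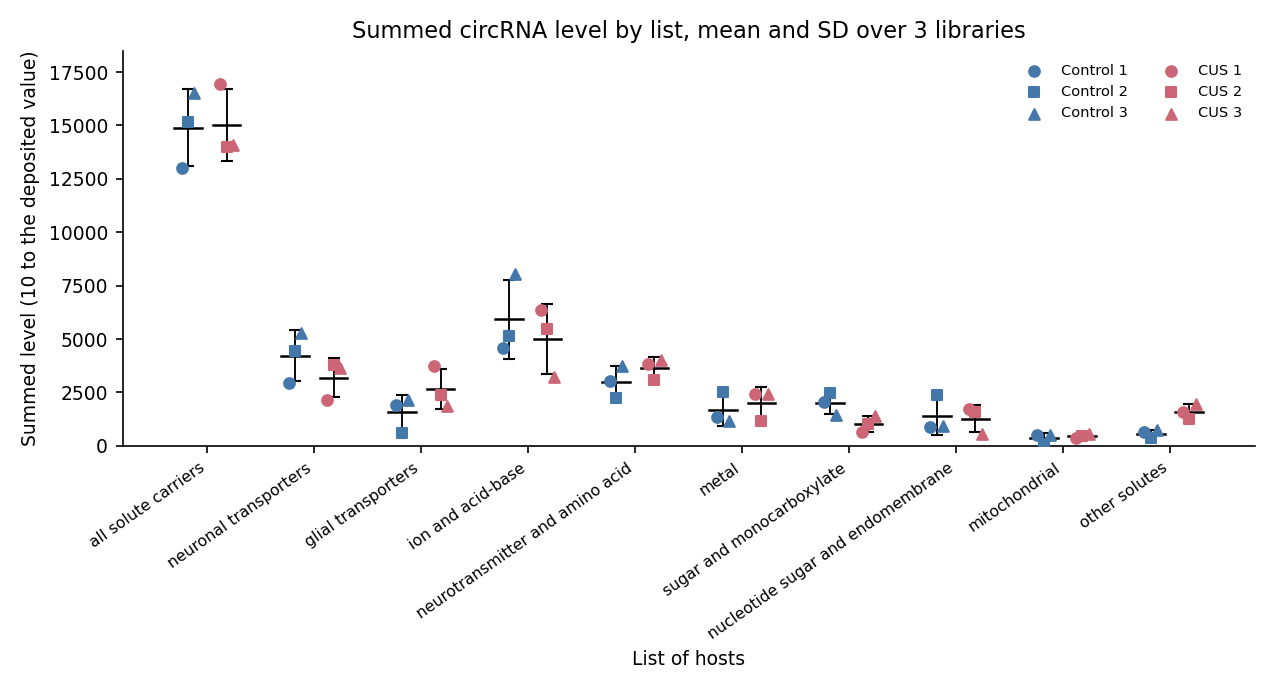
Summed circRNA level of all solute carriers, of the neuronal and glial lists and of the 7 role groups in each library (linear axis), with lines and bars for mean and SD over 3 libraries. The groups overlap in all sums except sugar and monocarboxylate, lower in CUS, and other solutes, higher in CUS.

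Host sums were compared between CUS and Control with limma on log2(level + 45.5), fitted over all hosts above 0 in at least 3 libraries. The filter passed 31 of the 53 solute carrier hosts, of which 16 were fitted higher in CUS and 15 lower. Their median log2 difference was 0.01. At an adjusted p under 0.05, 0 of the 31 passed, as did 0 of 2151 hosts (0.0%). At an unadjusted p under 0.05 there were 2, Slc9a9 and Slc45a4, both lower in CUS, which is 6.45% of 31 against 5.86% of all tested hosts (2.56% higher, 3.3% lower). Without Control replicate 1, Control replicate 2 or CUS replicate 2 there were 0, without Control replicate 3 there was 1, and without CUS replicate 1 there were 3. Groups did not overlap for 3 hosts (Slc44a1 above, Slc9a9 and Slc45a4 below), or 9.68% against 11.4% of all tested hosts (5.86% above, 5.53% below). The members' shares were thus near those of all hosts.

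For single circRNAs, 31 of the 114 were tested, of which 19 were fitted higher in CUS and 12 lower, where 47.2% of 3896 tested circRNAs were fitted higher. Their median log2 difference was 0.19, against -0.12 over all tested. This lean rested on single libraries. Without Control replicate 1, 15 were fitted higher and 16 lower with a median of -0.18, and without CUS replicate 1, 13 were higher and 18 lower with a median of -0.19. With limma 0 of the 31 passed the adjusted threshold, as did 0 of 3896 (0.0%). At an unadjusted p under 0.05 there were 2, mmu_circRNA007221 of Slc44a1 (higher) and mmu_circRNA003835 of Slc45a4 (lower), or 6.45% against 6.01% of all (2.75% higher, 3.26% lower). Without Control replicate 2 there were 0, and without Control replicate 1, Control replicate 3 or CUS replicate 2 there was 1. The same 2 were the only ones whose groups did not overlap, against 10.9% of all tested circRNAs (5.78% above, 5.08% below).

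**Figure D5:**
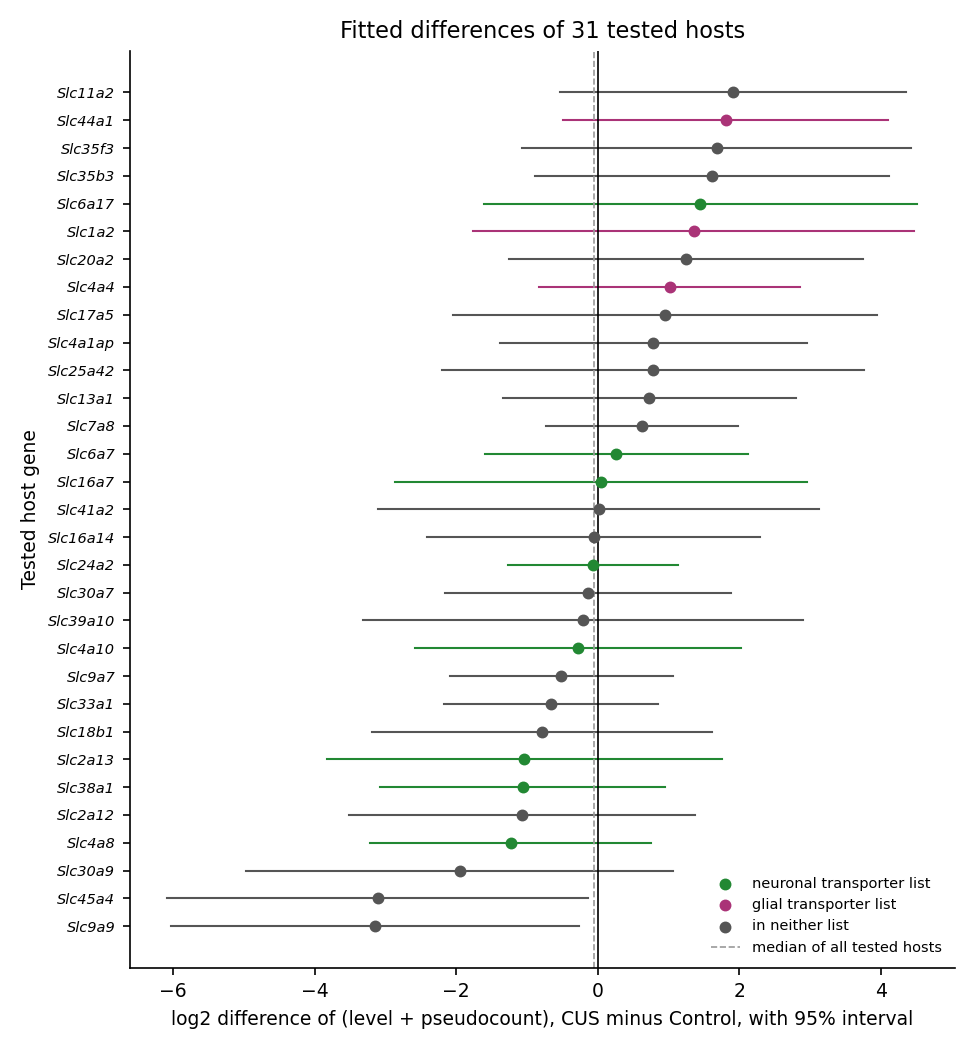
Fitted log2 differences of level + pseudocount, CUS minus Control, for the 31 tested solute carrier hosts with 95% intervals (limma, 3 libraries per group), coloured by list. Points run from -3.14 for Slc9a9 to 1.91 for Slc11a2, and the interval includes 0 for every host except Slc9a9 and Slc45a4.

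Hosts of the most similar pattern were sought by Euclidean distance of centred log2(level + 45.5) over the 6 libraries, among hosts above 0 in the same libraries. For Slc4a4, 873 hosts qualified, and the closest were Rb1 (distance 1.18), Crebrf (1.40) and Ahcyl2 (1.41). Rb1 was at 1388, 908 and 942 in Control against 1769, 2348 and 571 in CUS. For Slc44a1, 39 hosts qualified, led by Lyst (0.97), Eps15 (1.31) and Tmem164 (1.33). Lyst was at 266, 0 and 348 in Control against 1061, 511 and 234 in CUS.

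Other transporters, namely P-type ATPases, ABC transporters and Slco genes, had 31 hosts with 82 circRNAs. Of the 17 tested, 5 (29.4%) were fitted higher in CUS and 12 lower, where 48.1% of all tested hosts were fitted higher. At the adjusted threshold 0 passed. Groups did not overlap for 4 of the 17 (1 above, 3 below), or 23.5% against 11.4% of all tested hosts. The difference between these shares was not tested. Atp2b1, a plasma membrane calcium pump gene, was at 944, 487 and 325 in Control against 1371, 1987 and 1925 in CUS. The groups did not overlap, and the log2 difference was 1.62 with SE 0.66 (limma adjusted p = 0.708). Atp2b2, its paralogue, was lower in all CUS libraries (622, 51.1 and 674 against 681, 1109 and 785), though CUS replicate 3 lay just below Control replicate 1. Its log2 difference was -1.30 with SE 0.96 (limma adjusted p = 0.917). Atp8a1, a phospholipid flippase gene, was at 1555, 1699 and 2617 in Control against 672, 1253 and 593 in CUS. Its log2 difference was -1.21 with SE 0.59 (limma adjusted p = 0.804). Atp9a was at 2880.0, 47.9 and 1096 in Control against 1754, 2254 and 1220.5 in CUS, with overlapping groups.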

How the data were processed

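CircRNA levels were taken from 1 table of 6 libraries (3 Control, 3 CUS). Per-library values were deposited by the authors as log10 levels with no unit named. The submitters' processing notes list mm9, StringTie, DESeq and edgeR with no role. The sources used here name no circRNA caller. Of levels (10 to the value) below 300 steps, 100% fell within 0.05 of a whole number of library steps, the lowest being 17 steps. Host symbols and positions came from GENCODE vM21 (GRCm38), which matched 3667 of 3675 single host identifiers. Positions are those of the host gene.

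Groups were compared with limma 3.58.1 (eBayes with a trend) in R 4.3.3 on log2(level + 45.5), a pseudocount set to the median of the 6 smallest nonzero levels, one per library. Fold changes on this scale understate changes of low hosts, and a library at 0 can enlarge them. P-values were adjusted by Benjamini-Hochberg over all hosts or circRNAs above 0 in at least 3 libraries. The fit was run on simulated data with Poisson noise only. Recovery was required only at a depth far above the one assumed for these libraries. The simulation therefore does not show which changes the fit could find here. Tables and figures used Python 3.11.15, numpy 2.4.6, pandas 2.3.3 and matplotlib 3.10.9. Named hosts were Slc4a4, Slc44a1, hosts above 0 in all 6 libraries, the 6 of highest mean, the 5 higher and 5 lower of smallest p, and tested hosts of the neuronal and glial lists. A host at 0 in 1 whole group and above 0 in all of the other would also have been named, and there was none among those tested. Named circRNAs were all of Slc4a4 and Slc44a1, those above 0 in all 6 libraries, the 5 of highest mean, and the 5 higher and 5 lower of smallest p. For other transporters the 2 higher and 2 lower of smallest p were named, and for likeness the 3 closest hosts. Other hosts and circRNAs in the text were chosen after their values were seen. Members and lists were chosen with earlier results of these data known. Alternatives covered pseudocount, filter, scaling, trend, replicate block, circRNAs of several genes and each library left out. Some items are not reported here.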

Additional observations from a re-analysis of the deposited data

Results flagged for a closer look

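CircRNAs that list an Slc gene together with another gene were left out of the comparisons. Among them, mmu_circRNA004436, which lists Gm16310, Slc5a3 and Mrps6, was higher in a CUS library than in any Control library. It was at 339 in CUS replicate 2 and at 0 in the other 5 libraries, so the value rests on 1 library. Slc5a3 encodes a sodium-coupled myo-inositol transporter.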

How the results depend on the processing

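No solute carrier host or circRNA passed the adjusted threshold in any alternative run, and the lowest limma adjusted p among named ones was 0.297 (no variance trend). The count of hosts at an unadjusted p under 0.05 was 2. It was 1 with 0.2 times the pseudocount or the replicate block and 0 among hosts above 0 in all 6 libraries, and 0 to 3 with 1 library left out. For circRNAs the count was also 2. It was 1 with 0.2 times the pseudocount or the replicate block, 0 among those above 0 in all 6 libraries, and 0 to 2 with 1 library left out. Same-numbered libraries had correlations of deviations of -0.07 to -0.03 over hosts, against -0.005 to 0.046 for libraries of unlike number. Over circRNAs they were -0.025 to -0.011 against -0.009 to 0.029. No positive correlation by number was seen, but the same-numbered values were the lowest in both fits. With so few libraries per group this check could not exclude a pairing. Of 38 named and tested hosts and circRNAs, 25 kept their direction in every setting run and 13 did not. With 1 library left out, log2 differences of these host sums changed sign: Slc16a7 (-0.85 to 0.96, below 0 without Control replicate 1, CUS replicate 2 or CUS replicate 3), Slc4a10 (-1.15 to 0.97, above 0 without Control replicate 3 or CUS replicate 1), Slc2a13 (-1.88 to 0.090, above 0 without CUS replicate 2), Slc24a2 (-0.58 to 0.21, above 0 without Control replicate 1, CUS replicate 1 or CUS replicate 3), Slc6a7 (-0.18 to 0.79, below 0 without either replicate 3), Slc16a14 (-0.37 to 0.51, above 0 without Control replicate 1, CUS replicate 1 or CUS replicate 3), Slc9a7 (-1.40 to 0.33, above 0 without CUS replicate 2) and Slc30a7 (-0.55 to 0.16, above 0 without either replicate 2). The same held for mmu_circRNA006919 of Slc30a7 (-0.72 to 0.69, below 0 without Control replicate 2 or CUS replicate 1), mmu_circRNA006707 of Slc33a1 (-0.31 to 0.26, above 0 without CUS replicate 1), mmu_circRNA011057 of Slc9a7 (-0.59 to 0.42, below 0 without Control replicate 3 or CUS replicate 1), mmu_circRNA011058 of Slc9a7 (-2.29 to 0.12, above 0 without CUS replicate 2) and mmu_circRNA010330 of Slc35f3 (-0.063 to 1.72, below 0 without CUS replicate 1). Quantile normalization also changed the sign of mmu_circRNA006707 of Slc33a1 (0.15). The cause was not tested. With 1 library left out, the median was -0.10 to 0.41 over the 31 solute carrier hosts and -0.19 to 0.41 over the 31 circRNAs.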
